A study of Mus musculus with 63 samples.

Results

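Intestinal epithelial cells (IECs) taken from VillinCreERT2 mice were set against small intestinal organoids of the same genotype, so that control epithelium in vivo could be described beside control epithelium in culture. The members are 6 libraries of the 63 in the series, 3 of IECs and 3 of organoids, chosen by their labels and joined by Ensembl gene identifier. The series was built to compare loss of the Mediator kinases CDK8 and CDK19 with controls, and both groups used here are its controls. Both carry the VillinCreERT2 transgene on a C57BL/6 background, in which the villin promoter drives a tamoxifen-dependent Cre in the intestinal epithelium, and neither is labelled with a floxed or deleted kinase allele. The mice received 5 daily injections of tamoxifen at 80 mg/kg and their IECs were collected at day 14. The organoids received 100 nM 4-OHT, the active form of tamoxifen, for 24 h and were collected at day 7. They grew in Matrigel with 10% noggin-conditioned medium, 5% R-spondin-conditioned medium, 50 ng/ml EGF and 1.25 mM N-acetylcysteine. Age and sex were not given in the sources used here.

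Poly-A RNA was sequenced, and the values are counts of reads per gene, deposited without normalization. Totals ran from 19065571 to 19351844 counts per IEC library and from 20424462 to 21439044 per organoid library. The IEC libraries carry 3 different numbers in their column names, whereas the 3 organoid libraries carry 1 line number, so p-values measure only the spread between these samples, which for the organoids may be technical. The groups were also deposited in separate tables and differ in time, drug and exposure, so setting, table and time cannot be told apart, and only differences over 4-fold whose libraries did not overlap were counted. A gene was called when edgeR's quasi-likelihood test gave an adjusted p under 0.05, the fitted change exceeded 4-fold and all 3 libraries of one group lay above all 3 of the other. Levels are CPM (counts scaled to a common library size) after scaling by trimmed means (TMM), and log2 fold changes are IECs minus organoids.

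Both groups carried epithelial markers. Epcam, an epithelial adhesion molecule, measured 1710, 1720 and 1790 CPM in the IEC libraries and 975, 1050 and 987 CPM in the organoid libraries. The change was 0.80 on the log2 scale, with the organoid libraries all below the IEC libraries. Cdh1 (E-cadherin) differed by 0.30, Krt8 by 0.82, Krt18 by -0.25 and Krt19 by -0.13 on the log2 scale, all within 2-fold. Other epithelial markers were higher in IECs by more than 2-fold. Vil1 lay at 2.34, and Krt20 and Cldn7 lay at 2.64 and 1.06 in the fit of 12 libraries described below. Cdk8 and Cdk19, the kinases studied in the series, lay within 2-fold, with log2 changes of -0.25 ± 0.07 (SE) and -0.15 ± 0.08 (SE). Cd3g, Igkc and Itgax, markers of T cells, plasma cells and myeloid cells, had no count in any organoid library. Other genes of these lists were detected there, such as the myeloid gene Csf1r with 22, 11 and 27 counts, and the myeloid list summed to 9.64 to 15.4 CPM in organoids. Endothelial genes had sums of 17.2 to 19.9 CPM in organoids and of 11.9, 20.9 and 13.1 CPM in IEC replicates 1, 2 and 3, of which replicate 2 alone reached the organoid range. Most of that organoid sum was Lyve1, at 14.5, 16.3 and 12.3 CPM in organoids and 4.32, 5.61 and 4.93 CPM in IECs. None of the 5 endothelial genes tested was called and 4 passed the adjusted p.

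The small intestinal epithelium renews from stem cells at the crypt base. Their progeny become absorptive enterocytes, which digest and take up food, or secretory goblet, Paneth, tuft and enteroendocrine cells. In the animal this layer lies between the microbes and food of the lumen and a tissue full of lymphocytes and stromal cells that send interferons, BMPs and Wnts to it. An organoid keeps the epithelium and replaces those surroundings with a gel and a medium of chosen growth factors.

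Of 14679 genes tested, 1259 (8.58%) were called higher in IECs and 459 (3.13%) higher in organoids. Those 2 shares are the background for every list given below. Libraries of the groups did not overlap for 79% of all genes tested, so separation alone marks few genes out. Among called genes with a mean of 50 counts or more in the higher group, the 10 with the largest rises in IECs were H2-Aa, Cd74 and Ciita of antigen presentation, Gzma, Gzmb, Cd7, Cd8a, Ccl5 and Cd3g of lymphocytes, and C4b, a complement component. The call of C4b was lost without IEC replicate 1 or 3 (edgeR adjusted p = 0.0597 and 0.147), without any 1 of the organoid libraries, without the filter on low counts and in a test against 1.5-fold, and that of Gzmb without IEC replicate 3 (edgeR adjusted p = 0.0652). Igha and Igkc, antibody chains of plasma cells, had log2 changes of 13.83 and 13.06 but were not called (edgeR adjusted p = 0.121 and 0.115). Without IEC replicate 2, the highest library for both, they were called at 11.52 and 11.04 (edgeR adjusted p = 5.76e-08 and 1.31e-08). They were also called with both control organoid lines pooled. With the replicate number as a block they were called too (edgeR adjusted p = 2.19e-08 and 4.6e-08). The 10 largest in organoids by the same rule were Spp2, Sprr2f, Stc2, Mt4, Prr9, Ak4, Ranbp3l, Lipn, Scd1 and Sprr1a. Several of these were low in organoids of another line. C57BL/6 organoids held Spp2 at 0.119 to 0.331 CPM, Sprr2f at 0.0552 to 0.108, Ranbp3l at 0.297 to 0.607, and Mt4 and Prr9 at no more than 0.415 and 0.110 CPM, and none of these 5 passed the filter there. Ak4, Lipn, Scd1 and Sprr1a were called against C57BL/6 and vehicle organoids as well, Stc2 against the first, and Spp2 and Mt4 against the second. Of the 1259 genes, 121 had no count in any organoid library, and of the 459 genes, 13 had none in any IEC library. Of all calls, 73.3% were higher in IECs. Scaled by library totals alone, the median of all genes fell from -0.01 to -0.43 on the log2 scale and the calls became 996 and 780, of which 56.1% were higher in IECs. TMM factors ran from 0.857 to 0.869 in IECs and from 1.15 to 1.17 in organoids.

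Genes were next grouped into lists by role, and the position of each list among all genes is shown in the plot of log2 fold changes by list. Antigen presentation, interferon, absorption and tuft cell lists lie to the right of the line at 0. Sterol synthesis, serine synthesis and glycolysis lists lie to its left, and cell cycle lists stay between the 4-fold lines.

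**Figure D1:**
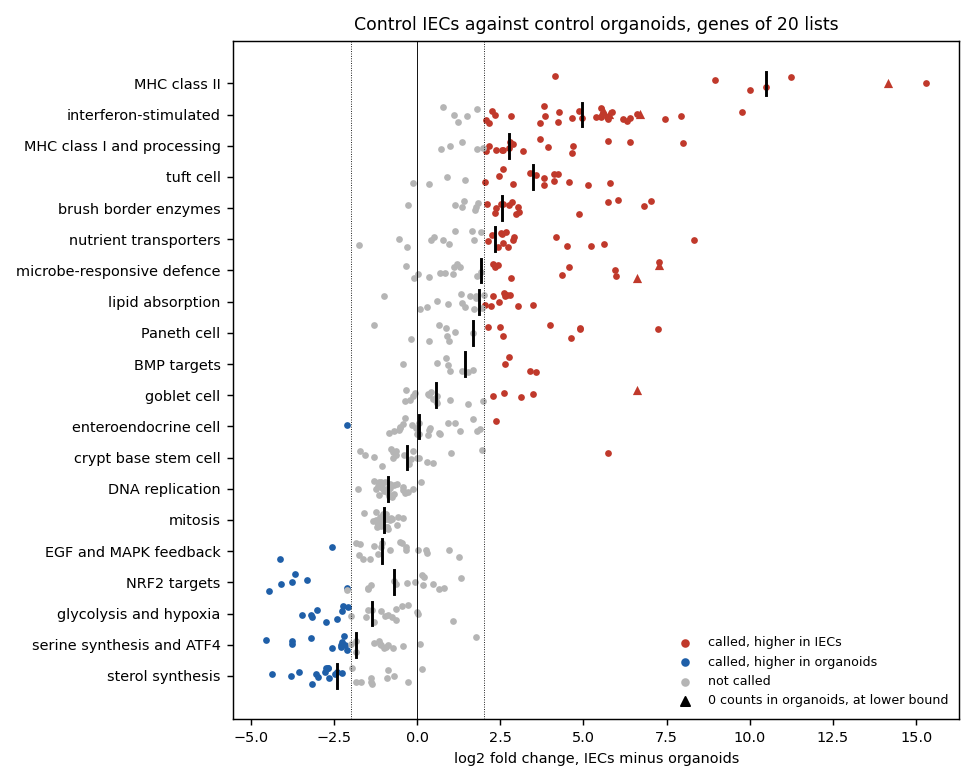
Log2 fold change (IECs minus organoids, x axis) of each tested gene in 20 lists (y axis), with 1 point a gene, a black bar at the list median and dotted lines at 4-fold. Triangles are genes with no count in any organoid library, drawn at their lower bound, which the bars use for them too. The medians run from 10.50 for MHC class II to -2.41 for sterol synthesis.

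Most digestive enzymes of the enterocyte brush border were more abundant in vivo. Of 22 brush border genes tested, 15 were called higher in IECs and 0 in organoids by edgeR, with a median log2 change of 2.55 against -0.01 for all genes. Lct, the lactase that splits milk sugar (chr1:128284756-128328318, GRCm38), measured 3130, 2720 and 2720 CPM in IECs and 37.8, 40.7 and 52.8 CPM in organoids. No organoid library came near an IEC library, and the change was 65.4-fold (log2 6.03 ± 0.15 SE, edgeR adjusted p = 4.63e-09). Anpep, an aminopeptidase, measured 12100, 12000 and 14200 CPM against 389, 524 and 388 CPM, a 29.4-fold difference (log2 4.88 ± 0.16 SE). Ace, a dipeptidase of the same membrane, was higher by 5.74 ± 0.11 (SE) and Mep1b, a meprin protease, by 3.04 ± 0.12 (SE) on the log2 scale. Vil1, which bundles the actin of microvilli, was higher by 2.34, although this fell to 1.92 and lost its call with library totals alone.

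Other enzymes of the same membrane did not follow. Sis, the sucrase-isomaltase, measured 4790, 4650 and 4470 CPM in IECs and 4900, 6290 and 5810 CPM in organoids. All organoid libraries were above all IEC libraries, but the log2 change was only -0.29 ± 0.10 (SE). Alpi, intestinal alkaline phosphatase, stood higher in IECs by 1.76 on the log2 scale, below 4-fold, but it was called at 3.59 against C57BL/6 organoids and at 2.79 against the vehicle organoids of another line. All 15 called genes had every one of the 6 IEC libraries used here above every one of the 39 organoid libraries used here. These are not all controls. The 6 are control and double-knockout IECs, the latter without CDK8 and CDK19. The 39 include control organoids, organoids lacking CDK8, CDK19 or both, and vehicle and 4-OHT organoids of a time course.

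Transporters moved with the enzymes. Of 26 nutrient transporters, 15 were called higher in IECs and 0 in organoids (median log2 change 2.34). Slc15a1, the peptide transporter PEPT1, measured 910, 736 and 896 CPM in IECs and 20.7, 22.7 and 24.6 CPM in organoids, with no overlap and a 37.4-fold difference (log2 5.22 ± 0.11 SE, edgeR adjusted p = 1.74e-09). Slc43a2, an amino acid transporter, was higher by 4.16 ± 0.10 (SE), Slc7a8 by 2.89 ± 0.07 (SE) and Slc2a2, the basolateral glucose transporter GLUT2, by 2.51 ± 0.10 (SE). Slc5a1, the apical sodium-glucose transporter SGLT1, differed by 1.15 ± 0.10 (SE), and Slc6a19, a neutral amino acid transporter, by 1.71 ± 0.10 (SE), both short of 4-fold. Against the same 2 other organoid groups Slc6a19 was called, at 3.34 and 3.19.

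Of 24 genes of lipid absorption, 10 were called higher in IECs and 0 in organoids (median 1.86). Fabp2, which binds fatty acids in the enterocyte, measured 2700, 2890 and 2990 CPM against 317, 364 and 364 CPM. The libraries were well apart and the change was 8.21-fold (log2 3.04 ± 0.09 SE). Apoa1, an apolipoprotein of secreted lipoproteins, was higher by 2.79, Npc1l1, the cholesterol importer, by 2.63, and Mogat2, which rebuilds triglycerides, by 2.45 on the log2 scale. Mttp, which loads lipid onto apolipoprotein B, differed by 0.93. This list also shows the edge of the 4-fold rule. Abca1 just passed at 2.04, and Apob just missed at 2.00. Among organoid-higher genes, Pdk1 passed at -2.09 and Slc16a3 missed at -2.00.

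Genes of fatty acid oxidation moved less. Of 24 tested, 4 were higher in IECs and 1 in organoids (median 0.92). Pdk4, a kinase that holds back pyruvate oxidation, measured 26.2, 24.1 and 26.9 CPM in IECs and 0, 0.0407 and 0.0849 CPM in organoids. So few organoid reads give a ratio of 627 with an exact counting interval of 214 to 3040, which covers counting error only. Acot1, an acyl-CoA thioesterase, was higher in organoids by 3.50 ± 0.16 (SE). Of 34 xenobiotic genes, 2 were called higher in IECs and 0 in organoids, namely Cyp27a1 (log2 5.21) and Cyp3a25 (log2 2.90). Cyp3a25 belongs to a family of near-identical genes that can share reads, so its count is uncertain.

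MHC class II genes, which present antigen to CD4 T cells, were low in the organoids, where the list summed to 7.51 to 8.28 CPM. Of 10 listed, 7 passed the filter on low counts and each was called higher in IECs, with a median log2 change of 10.50. Most passed that filter through the IEC libraries alone, so the count is a description. Of the genes not tested, H2-DMb2, H2-Oa and H2-Ob, none had a count in the organoids. H2-Aa, a chain of the class II molecule (chr17:34282744-34287823, GRCm38), measured 485, 800 and 958 CPM in IECs and had no count in any organoid library. Set against a floor of 3 counts over the organoid group, it was at least 18200-fold higher (edgeR adjusted p = 0.00168). Its partner H2-Ab1 measured 597, 908 and 1020 CPM against 1.69, 1.63 and 1.83 CPM, a 491-fold difference. Cd74, the invariant chain that guides class II molecules, measured 1770, 2650 and 2990 CPM in IECs and reached 0.17 CPM in 1 organoid library. Ciita, the transactivator on which class II transcription depends (chr16:10480059-10528418, GRCm38), measured 32.2, 50.2 and 62.2 CPM against 0.0402, 0 and 0 CPM, a ratio of 3530 with an exact counting interval from 633 to 139000.

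MHC class I genes and their processing machinery were expressed in both settings, and most were higher in IECs. Of 21 tested, 16 were called higher in IECs and 0 in organoids (median 2.77). B2m, the shared light chain, measured 1890, 1880 and 2020 CPM against 299, 350 and 325 CPM, which is 5.95-fold with no overlap (log2 2.57 ± 0.08 SE). Psmb8, a subunit that converts the proteasome into the immunoproteasome, measured 97.4, 125 and 138 CPM against 1.49, 1.34 and 1.40 CPM, or 84.9-fold. Tap1, which moves peptides into the endoplasmic reticulum, was 25.3-fold higher and Tapbp, which holds class I molecules beside it, was higher by 2.77 on the log2 scale. H2-K1 (log2 1.79) and Psme1 (log2 1.36) did not pass 4-fold. H2-D1 passed at 2.17 but not with library totals alone (1.75), and reads of the H2 class I genes may be split among near-identical copies.

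Most interferon-stimulated genes were also higher in IECs. Of 35 tested of 37 listed, 30 were called higher in IECs and 0 in organoids, with a median of 4.95. Oasl2 measured 122, 120 and 165 CPM against 1.49, 1.59 and 1.78 CPM, an 83.8-fold difference without overlap (log2 6.39 ± 0.18 SE, edgeR adjusted p = 7.68e-08). Irf7, which amplifies the interferon response, measured 128, 125 and 166 CPM against 9.40, 12.2 and 10.7 CPM, or 13-fold. Irf1, a factor induced by interferon gamma, was higher by 2.81 ± 0.06 (SE) and Parp14 by 3.85 ± 0.09 (SE). Stat2 (log2 1.22) and Oasl1 (log2 1.51) stayed below 4-fold, although Oasl1 was called at 2.11 against C57BL/6 organoids. The list summed to 1280, 1260 and 1530 CPM in the IEC libraries and to 161 to 174 CPM in the organoid libraries.

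Promoters are shown for these lists because most of their tested genes were called in 1 direction. Windows of 250 bases before to 50 after each gene start were taken from RefSeq (GRCm38.p6) and searched on both strands. A core of the interferon-stimulated response element (GAAA, any 2 bases, GAAA) occurred in 15 of 25 matched interferon-stimulated genes and in 5 of 17 matched class I genes, against 3.99% of all genes in the table. Among matched interferon-stimulated genes it was in 12 of 20 called and 3 of 5 not called, and among class I genes in 3 of 13 called and 2 of 4 not called. The letters CTGATTGG, the Y box of class II promoters, occurred in 3 of 7 matched class II genes, against 4.70% of all genes. These were 2 of 4 called and 1 of 3 not tested. A match of letters is a description and not a binding site. The stretches below hold the match in capitals, on the strand of the gene, for Oas3 (chr5:120777685-120777774, minus), B2m (chr2:122147508-122147597, plus), H2-Aa (chr17:34287827-34287914, minus) and H2-Eb1 (chr17:34305765-34305852, plus).
Oas3: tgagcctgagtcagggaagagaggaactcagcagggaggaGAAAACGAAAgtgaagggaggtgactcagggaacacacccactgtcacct
B2m: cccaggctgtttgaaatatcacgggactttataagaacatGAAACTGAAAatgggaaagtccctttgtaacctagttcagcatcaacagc
H2-Aa: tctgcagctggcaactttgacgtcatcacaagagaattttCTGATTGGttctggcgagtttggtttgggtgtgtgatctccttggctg
H2-Eb1: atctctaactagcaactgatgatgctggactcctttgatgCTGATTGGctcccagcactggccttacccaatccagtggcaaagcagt

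Some epithelial defence genes were higher in vivo as well. Of 23 tested, 11 were called higher in IECs and 0 in organoids (median 1.93). Reg3b, a secreted antibacterial lectin (chr6:78370657-78373466, GRCm38), measured 3280, 6490 and 8800 CPM against 43.6, 50.1 and 25.5 CPM. The IEC libraries differed widely among themselves, yet the lowest was far above the highest organoid library, and the change was 156-fold (log2 7.28 ± 0.60 SE, edgeR adjusted p = 0.000228). Its neighbour in the family, Reg3g, measured 2020, 4120 and 4930 CPM against 60.2, 77.1 and 40.5 CPM, with the same order of IEC libraries. Reads of near-identical Reg genes may be split between them. Pigr, which carries IgA across the epithelium, was higher by 2.29, or by 1.87 and without a call when scaled by library totals. Nlrp6, a sensor of microbial products, differed by 0.37 on the log2 scale.

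Markers of non-epithelial cells were present in the IEC libraries, and unevenly. Of 28 T cell and intraepithelial lymphocyte genes, 23 passed the filter on low counts, again through the IECs, and each was called higher there. Their median was 9.34, or 7.03 when the 13 genes without an organoid count are placed at their bound. Gzma, a granzyme of cytotoxic lymphocytes, measured 72.4, 187 and 89.2 CPM and had no count in the organoids, so it was at least 2820-fold higher. Its edgeR adjusted p of 0.0135 became 0.0574 without IEC replicate 1 and 0.0814 without IEC replicate 3. Cd7 was at least 1070-fold higher, Cd8a at least 753-fold and Cd3g at least 413-fold. In bulk RNA, fewer cells of a type and less RNA per cell cannot be told apart.

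IEC replicate 2 stood apart in the other lists. Fibroblast and muscle genes summed to 1290 CPM in that library, against 19.2 and 83.7 CPM in replicates 1 and 3 and 5.66 to 5.94 CPM in organoids. Myeloid genes summed to 801 CPM, against 49.5 and 94.8 CPM, and B and plasma cell genes to 448 CPM, against 46.0 and 47.9 CPM. Of the mesenchymal, myeloid and B cell genes tested, 1 of 9, 6 of 12 and 2 of 7 were called, and without IEC replicate 2 the called genes numbered 3, 9 and 5. Many of these genes passed the filter through the IECs alone, and 4 in each list had no organoid count, so these counts too are a description. Col1a1, a collagen of fibroblasts, measured 0.791, 220 and 8.38 CPM, and its log2 change of 7.42 ± 2.86 (SE) was not called by edgeR, but it was called by DESeq2 (adjusted p = 2.93e-05), with both control organoid lines pooled (edgeR adjusted p = 0.000844), with the replicate number as a block (edgeR adjusted p = 0.0365) and without IEC replicate 1 (edgeR adjusted p = 0.0484).

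MHC class II genes did not share that order. Their sum was 3310, 5070 and 5720 CPM in IEC replicates 1, 2 and 3, highest in replicate 3, where T cell genes summed to 379, myeloid genes to 94.8 and B cell genes to 47.9 CPM. Class I genes summed to 7960, 8160 and 8650 CPM in IECs and to 1500 to 1630 CPM in organoids. Without IEC replicate 2, when 8.52% of all genes were called higher in IECs and 3.96% in organoids, 7 class II, 16 class I and 30 interferon-stimulated genes were called, all higher in IECs. The part of lymphocytes and myeloid cells in these differences was not tested. The plot of summed levels shows the 3 lists of antigen presentation and interferon as tight groups, and the B cell, myeloid and mesenchymal lists as 1 high IEC library above the other two.

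**Figure D2:**
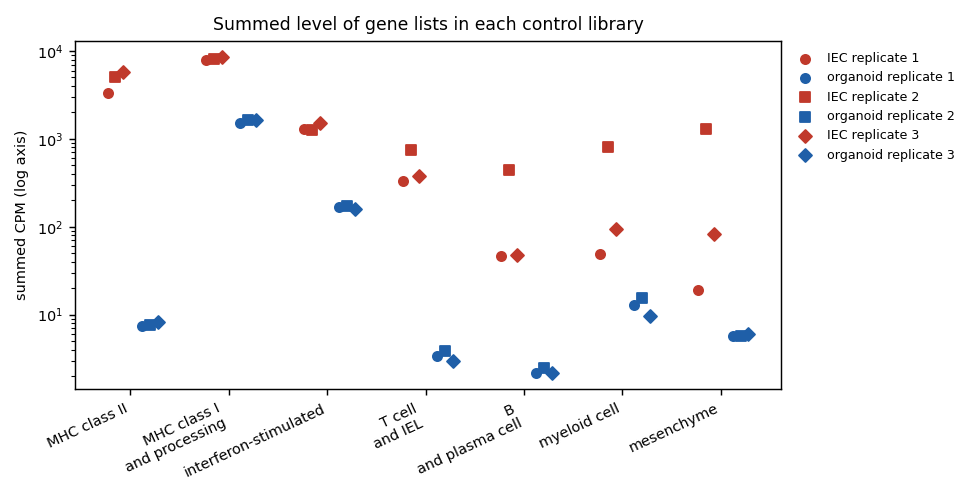
Summed CPM (y axis, log scale) of 7 gene lists (x axis) in each of the 3 IEC libraries (red) and 3 organoid libraries (blue), with 1 marker shape a replicate number. IEC replicate 2 (red squares) reaches 1290 CPM for mesenchyme, against 19.2 and 83.7 CPM in the other IEC libraries.

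Among the secretory lists, that of tuft cells had the highest median. Of 18 tested of 20 listed, 14 were called higher in IECs and 0 in organoids, with a median of 3.49. Trpm5, the channel of taste-like signalling in tuft cells, measured 58.9, 42.4 and 40.3 CPM against 2.65, 3.34 and 4.07 CPM, a 14.1-fold difference without overlap (log2 3.81 ± 0.21 SE). Dclk1, the usual tuft cell marker, was higher by 2.46 ± 0.09 (SE) and Sh2d6 by 4.24 ± 0.24 (SE). Pou2f3, the factor that tuft cells need to form, differed by only 1.43 ± 0.19 (SE), and Cd24a by -0.13.

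Goblet cell genes split. Of 20 tested, 5 were called higher in IECs and 0 in organoids (median 0.58). Zg16, a lectin of the mucus, measured 2290, 2950 and 2520 CPM against 276, 326 and 288 CPM, or 8.72-fold. Clca1, a protease of the mucus, was 11.2-fold higher, Fcgbp higher by 2.62 and Muc2, the gel-forming mucin, by 2.29 on the log2 scale. Muc2 fell to 1.87 with library totals and then had no call. Tff3 (log2 0.37) and Spink4 (log2 -0.37), both secreted by goblet cells, were close to equal in the 2 settings.

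Paneth cells release antimicrobial peptides into the crypt, and 8 of 17 of their genes tested were called higher in IECs (median 1.69). Lyz1, lysozyme, measured 2490, 1750 and 2530 CPM against 501, 516 and 530 CPM, which is 4.37-fold without overlap (log2 2.13 ± 0.14 SE). With library totals it lay at 1.71 and was not called. Ang4, an angiogenin with antibacterial activity, measured 786, 277 and 336 CPM against 80.9, 82.7 and 86.2 CPM. Its log2 change of 2.49 became 1.88 without IEC replicate 1 and lost the call. Itln1 (log2 0.36) and Defa24 (log2 0.67) were not called, and defensin reads may be split among near-identical copies. Only 1 of the 8 called genes had the 6 IEC libraries used here above the 39 organoid libraries used. The 6 include double-knockout IECs, where Lyz1 measured 389 to 1350 CPM. On a scale of all 45 libraries, the highest of the 39 organoid libraries held Lyz1 at 5670 CPM.

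Enteroendocrine cells secrete gut hormones. Of 25 genes tested, 1 was called higher in IECs and 1 in organoids, and the median of 0.06 turned to -0.36 under library totals. Sct (secretin) measured 29.2, 28.5 and 27.3 CPM against 4.50, 6.76 and 5.18 CPM (log2 2.37 ± 0.13 SE), and its call was lost at 1.95 with library totals. Gcg (proglucagon) measured 15.0, 9.08 and 17.4 CPM against 59.6, 71.3 and 48.9 CPM (log2 -2.12 ± 0.27 SE). That call was lost at -1.89 without IEC replicate 2 and at -1.99 without organoid replicate 2, and the direction turned against C57BL/6 organoids (0.18) and vehicle organoids (9.39). Chga (log2 1.14) and Chgb (log2 -0.52), granins of the hormone granules, stayed under 4-fold here but were called at 11.35 and 8.96 against vehicle organoids.

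Most crypt and cell cycle genes stayed within 4-fold. Of 20 stem cell genes, 1 was called, Tnfrsf19 (log2 5.73), at 3.83 to 5.35 CPM in IECs and at most 0.212 CPM in organoids. Olfm4, a marker of crypt base stem cells, measured 763, 687 and 965 CPM against 807, 729 and 888 CPM, overlapping ranges with a log2 change of -0.01 ± 0.13 (SE). Lgr5, the R-spondin receptor of those cells, was at 12.9, 9.51 and 18.4 CPM against 26.8, 21.9 and 22 CPM, all IEC libraries lower (log2 -0.79). Against vehicle organoids Lgr5 lay at -3.18 and was called. Of 30 DNA replication genes, 0 were called by edgeR in either direction, 26 passed the adjusted p without 4-fold, and 29 had lower values in IECs (median -0.88), with 1 called higher in organoids under library totals. All 28 mitosis genes had negative log2 changes, all 28 passed the adjusted p and 0 passed 4-fold (median -0.99). Mki67, present in dividing cells, measured 111, 97.9 and 129 CPM against 256, 237 and 236 CPM.

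Targets of growth factor pathways were then described. The part of noggin, EGF and R-spondin of the medium in these values was not tested. BMP signals come from the stroma, and the medium holds their inhibitor noggin. Of 12 BMP target genes tested, 4 were called higher in IECs and 0 in organoids (median 1.45), and they were Id1, Id3, Smad6 and Smad7. Id3, which blocks differentiation factors of the bHLH family, measured 82.4, 90.6 and 79.1 CPM against 9.28, 8.47 and 6.07 CPM, a 10.6-fold difference. Smad6, an inhibitor of the pathway that it is induced by, was 11.9-fold higher. Bmp2 (log2 1.00) was not called.

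EGF is in the medium, and of 21 genes of EGF and MAPK feedback 0 were called higher in IECs and 2 in organoids (median -1.05). Etv4, an ETS factor induced by MAPK signals, measured 1.89, 0.854 and 0.416 CPM against 19.4, 17.4 and 18.1 CPM, 17.3-fold higher in organoids. Etv5 was higher in organoids by 2.56 on the log2 scale. With library totals alone the count of 2 became 6. Dusp6, a phosphatase of the same feedback, went the other way at 1.25 ± 0.22 (SE). Of 25 immediate early genes, 5 were called higher in IECs and 1 in organoids. Klf2 was among the 5, at 1.16, 15.7 and 2.26 CPM in IECs, and its log2 change of 4.74 was 2.85 without IEC replicate 2, still called. It lost its call against C57BL/6 and vehicle organoids (edgeR adjusted p = 0.0506 and 0.0539), with limma-voom (adjusted p = 0.14) and without any 1 of the organoid libraries. Its call was also lost without the filter on low counts and in a test against 1.5-fold. Fos measured 211, 176 and 234 CPM against 15.4, 19.1 and 14.4 CPM. Of 18 Wnt targets and ligands, 3 were called higher in IECs, namely Sp5 (log2 3.51), Wnt6 (log2 4.4) and Nkd1, whose 2 counts over the organoid group give a ratio of 74.2 with a counting interval from 20 to 621. Nkd1 was not called against vehicle organoids, at 0.16.

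Sterol synthesis had the lowest median of the lists. Of 25 genes, 14 were called higher in organoids and 0 in IECs, with a median of -2.41, and 24 of 25 had negative log2 changes. Cyp51, which demethylates lanosterol, measured 77.3, 66.6 and 62.0 CPM in IECs and 796, 836 and 785 CPM in organoids. The ranges were far apart at 11.7-fold (log2 -3.55 ± 0.09 SE, edgeR adjusted p = 2.45e-09). Insig1, a sterol sensor, was 7.93-fold higher in organoids and Lss, which closes the sterol rings, 13.9-fold. All 14 called genes had the 39 organoid libraries used here above the 6 IEC libraries used. Outside this list, Scd1, which desaturates fatty acids (chr19:44394455-44407879, GRCm38), measured 7.54, 9.02 and 4.64 CPM against 1220, 1170 and 1290 CPM (log2 -7.44 ± 0.21 SE).

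Some genes of serine synthesis and targets of ATF4, a factor switched on when amino acids run short, were also higher in organoids. Of 25 tested, 11 were called higher in organoids and 0 in IECs (median -1.85). Psat1, an enzyme of serine synthesis (chr19:15904678-15947337, GRCm38), measured 12.8, 10.8 and 11.6 CPM against 163, 159 and 151 CPM, a 13.4-fold difference with no overlap (log2 -3.75 ± 0.07 SE, edgeR adjusted p = 9.25e-10). Asns, asparagine synthetase, differed by -2.18, Atf5 by -3.18 and Slc38a2, an amino acid transporter, by -2.28. Atf4 itself lay at -1.09 ± 0.05 (SE), and Slc3a2 went the other way at 1.77 ± 0.06 (SE), with a call at 2.06 against C57BL/6 organoids.

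Promoters of the same 2 lists were searched. The letters TGATGNAA, a core of the amino acid response element, occurred in 8 of 23 matched serine and ATF4 genes, against 4.51% of all genes, and these were 4 of 10 called and 4 of 13 not called. The letters TCACNCCAC, a core of the sterol regulatory element, occurred in 1 of 17 matched sterol genes, against 1.44% of all genes. That gene was Hmgcs1, which makes the precursor of mevalonate (log2 -2.26). Stretches of Asns (chr6:7693210-7693272, minus), Chac1 (chr2:119351009-119351096, plus) and Hmgcs1 (chr13:119690174-119690262, plus) are given from RefSeq with the match in capitals. In Chac1, a glutathione-degrading enzyme (log2 -4.54), the match lies on the opposite strand.
Asns: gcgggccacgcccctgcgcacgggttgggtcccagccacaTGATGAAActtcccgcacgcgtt
Chac1: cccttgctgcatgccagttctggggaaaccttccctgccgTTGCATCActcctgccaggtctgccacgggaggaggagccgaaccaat
Hmgcs1: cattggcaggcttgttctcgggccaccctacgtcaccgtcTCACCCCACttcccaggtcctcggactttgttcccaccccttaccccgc

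Of 25 genes of glycolysis and the hypoxia response, 9 were called higher in organoids and 0 in IECs (median -1.37). Ndrg1, which rises when oxygen is low, measured 105, 109 and 103 CPM against 938, 992 and 957 CPM, a 9.09-fold difference. Slc2a1, the glucose transporter GLUT1, measured 23.4, 31.9 and 21.9 CPM against 174, 175 and 164 CPM, or 6.65-fold. Pfkl (log2 -2.27) and Pdk1 (log2 -2.09) were called, whereas Ldha (log2 -0.77) and Pkm (log2 -0.89), which carry the last steps of glycolysis, were not. Ak4, a mitochondrial adenylate kinase outside the list, measured 0.304, 0.610 and 0.416 CPM against 95.4, 84.3 and 106 CPM.

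Of 21 NRF2 targets, which protect against oxidants, 6 were called higher in organoids and 0 in IECs (median -0.69). Gsta3, a glutathione transferase, measured 5.54, 4.51 and 6.24 CPM against 88.7, 94.1 and 94.9 CPM, or 17-fold. Ephx1 was higher in organoids by 3.32 and Cbr3 by 4.45 on the log2 scale. Gclc, which begins glutathione synthesis, lay at -2.10 and lost its call at -0.97 against C57BL/6 organoids, at -1.82 against vehicle organoids and at -1.98 without IEC replicate 2. Gpx2 lay at 0.82 and Prdx1 at 0.15. Of 22 p53 targets, 3 were called higher in organoids, namely Gdf15 (log2 -3.25), Eda2r (log2 -3.51) and Phlda3 (log2 -3.16), while Cdkn1a lay at -0.75. Sprr1a, a cornified envelope protein seen in regenerating epithelium, measured 1.70, 1.46 and 0.832 CPM against 128, 160 and 125 CPM, a 103-fold difference. In the same list of 20 regenerative genes tested, Il33 was 39.7-fold higher in IECs, and 3 genes were called higher in IECs and 2 in organoids.

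Mitochondrially encoded genes took 6.86 to 7.92% of counts in IECs and 3.67 to 5.13% in organoids, and mt-Co1 was higher in IECs by 1.62 ± 0.15 (SE) on the log2 scale, which is short of 4-fold, and was called at 2.36 against vehicle organoids. Of the 13 genes, 8 had positive and 5 negative log2 changes (median 0.57). The 1 gene called was mt-Atp8, which was higher in organoids (log2 -2.31) with 3, 5 and 2 counts in IECs against 36, 22 and 17, and its call was lost at -1.98 without organoid replicate 1. Of 18 clock genes, Nr1d1, Dbp and Hlf were called higher in IECs and Ciart in organoids, and the median of 0.21 turned to -0.21 with library totals. Dbp was not called against C57BL/6 (1.05) or vehicle organoids (0.90), nor was Hlf against the first (0.52) or Nr1d1 against the second (1.63). With library totals Hlf lay at 1.86 and was not called. Of the 459 genes higher in organoids 107 were processed pseudogenes and 295 protein coding, against 6 and 1150 of the 1259 higher in IECs. A further 969 processed pseudogenes and 11026 protein-coding genes were tested and not called. Counts of processed pseudogenes are uncertain, since they share sequence with their parent genes. The plot of 19 genes by library sets single values of both directions side by side, and the groups overlap for 1 of the genes drawn, Olfm4.

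**Figure D3:**
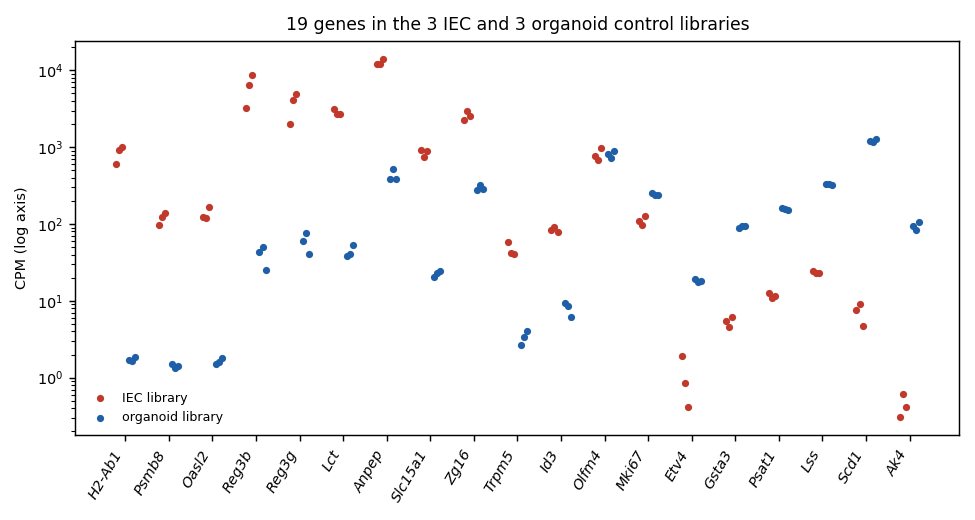
CPM (y axis, log scale) of 19 genes (x axis) in the 3 IEC libraries (red, left of each tick) and the 3 organoid libraries (blue, right), with 1 point a library. Red points lie above blue points from H2-Ab1 to Id3, mix with them for Olfm4 and lie below them from Mki67 to Ak4.

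The same IEC libraries were also set against organoids of other control lines, to see which values rest on the VillinCreERT2 line. C57BL/6 organoids, without Cre, given 4-OHT for 24 h and collected at day 7 in the same way, gave 1396 genes (9.42%) higher in IECs and 716 (4.83%) higher in organoids. Vehicle organoids at day 7 of a VillinCreERT2 line with Cdk8 fl/fl and Cdk19 ko/ko alleles, which keep CDK8 and lack CDK19, gave 1652 (11.2%) and 784 (5.31%). The 3 comparisons share the IEC libraries, so they are given side by side and not as independent evidence. Sterol synthesis had 14, 15 and 15 genes higher in organoids against the VillinCreERT2, C57BL/6 and vehicle lines, with medians of -2.41, -2.45 and -2.21. The interferon list had 30, 28 and 29 genes higher in IECs, brush border genes 15, 18 and 17, and tuft cell genes 14, 13 and 14.

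Other lists moved with the line. Paneth cell genes higher in IECs numbered 8, 4 and 4, with medians of 1.69, 0.14 and 0.75, and Lyz1 differed by 2.13, 0.14 and -0.41. In C57BL/6 organoids Lyz1 reached 2080 to 2520 CPM on a scale of all 45 libraries, close to the IEC values. Enteroendocrine genes higher in IECs numbered 1, 7 and 20, and Chga differed by 1.14, 0.28 and 11.35. Serine and ATF4 genes higher in organoids numbered 11, 4 and 9. The median of NRF2 targets was -0.69, 0.17 and -0.26. Stem cell genes higher in organoids numbered 0, 1 and 3, with medians of -0.32, -0.52 and -1.14. Wnt genes higher in IECs numbered 3, 3 and 2 and those higher in organoids 0, 0 and 4, with medians of -0.16, -0.34 and -1.24. Clock genes higher in IECs numbered 3, 1 and 1. Immediate early genes numbered 5, 6 and 2 higher in IECs and 1, 0 and 3 higher in organoids.

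Single genes named above also gained or lost a call with the line. Ang4 was not called at 1.52 against C57BL/6 organoids and 1.03 against vehicle organoids, nor was Asns at -1.77 and -1.78 or Slc38a2 at -1.21 and -1.49. Against C57BL/6 organoids alone, Eda2r (-1.82), Phlda3 (-1.48), Slc2a1 (-2.00), Slc2a2 (1.96) and Pigr (1.80) were not called. Against vehicle organoids alone, B2m (1.55) and Hmgcs1 (-1.76) were not called. H2-K1 was called against both, at 2.06 and 2.20. Lyve1 was called higher in organoids against both, at -2.11 and -2.48.

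Single genes of position along the intestine turned with the line. Of the 7 distal genes called higher in IECs, 7 were called again against C57BL/6 organoids and 5 against vehicle organoids. Cybrd1, an iron reductase of the duodenum, was higher in VillinCreERT2 organoids (log2 -3.30) but lower in the other organoids (3.66 and 4.20). Fabp6, which binds bile acids in the ileum, measured 115, 102 and 46.4 CPM in IECs and 178, 259 and 94.5 CPM in VillinCreERT2 organoids, a difference of -1.01 that was not called, whereas it was higher in IECs by 8.73 and 7.36 against the other lines. Reg1, a gene of the defence list, was called against all 3 lines, at 2.81, 6.05 and 9.01. Of the 1259 genes higher in IECs, 1019 (80.9%) had the 6 IEC libraries used here above the 39 organoid libraries used, and of the 459 higher in organoids, 199 (43.4%) had the reverse. The plot of list medians shows the sterol and interferon lists as tight rows and the Paneth and enteroendocrine lists as wide ones.

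A second pair of groups shares no library with the first. IECs and organoids of CDK8iIEC-KO/Cdk19-/- mice, which add Cdk8 fl/fl and Cdk19 ko/ko alleles to VillinCreERT2, given the same tamoxifen or 4-OHT and collected at days 14 and 7, had 2022 of 15622 genes (12.9%) higher in IECs and 478 (3.06%) higher in organoids. Of the control genes higher in IECs 73% were called again, which is 45.5% of the larger list. Of those higher in organoids 51.2% were called again, or 49.2% of the other list, and no gene was called in opposite directions. Sterol synthesis had 14 genes higher in organoids here also (median -2.14), the interferon list 26 higher in IECs (median 3.48) and class II genes 10 of 10. Some lists had fewer calls than in the control pair, with class I genes higher in IECs at 10 against 16, lipid absorption at 5 against 10, and serine and ATF4 genes higher in organoids at 3 against 11. Others had more genes higher in IECs, and more of their genes passed the filter. BMP targets were called in 10 of 15 tested against 4 of 12, and regenerative genes in 10 of 23 against 3 of 20. Immediate early genes were called in 8 of 26 against 5 of 25. Myeloid genes were called in 17 of 18 against 6 of 12, and mesenchymal genes in 16 of 16 against 1 of 9. Over all genes the share higher in IECs was 12.9% against 8.58%. The counts of the 2 pairs were not tested against each other. The IECs of this pair held more lymphoid RNA. T cell genes summed to 814 to 1530 CPM, against 328, 749 and 379 CPM in control IEC replicates 1, 2 and 3. B cell genes summed to 1160 to 1840 CPM, against 46, 448 and 47.9 CPM. Mesenchymal genes summed to 734 to 1570 CPM, against 19.2, 1290 and 83.7 CPM, so control replicate 2 lay within their range. The part of these cells in the larger list was not tested.

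Whether the change between settings differed between the genotypes was tested as a contrast within 1 edgeR fit of the 12 libraries. The organoids of each genotype carry 1 line number, so genotype and organoid line cannot be told apart in it. Of 16308 genes, 253 had an adjusted p under 0.05 and a difference over 4-fold, 149 with a higher value in the double knockout and 104 with a lower one. Among named genes, 8 passed. Dbp, a clock output gene, was higher in IECs of the controls (log2 2.54) and lower in those of the double knockout (-1.46), a difference of -4 ± 0.26 (SE) with an edgeR adjusted p of 2.18e-05. Its control value moved with the organoid line and was 1.05 against C57BL/6 and 0.90 against vehicle organoids. Oasl2 was higher in IECs in both genotypes, by 6.37 and 3.58. Sprr1a was higher in organoids in both, by 6.71 and 3.49 on the log2 scale, and control IECs against C57BL/6 organoids gave -4.34. In the plot of both genotypes most named genes lie near the diagonal, and the genes that passed the contrast are marked.

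**Figure D4:**
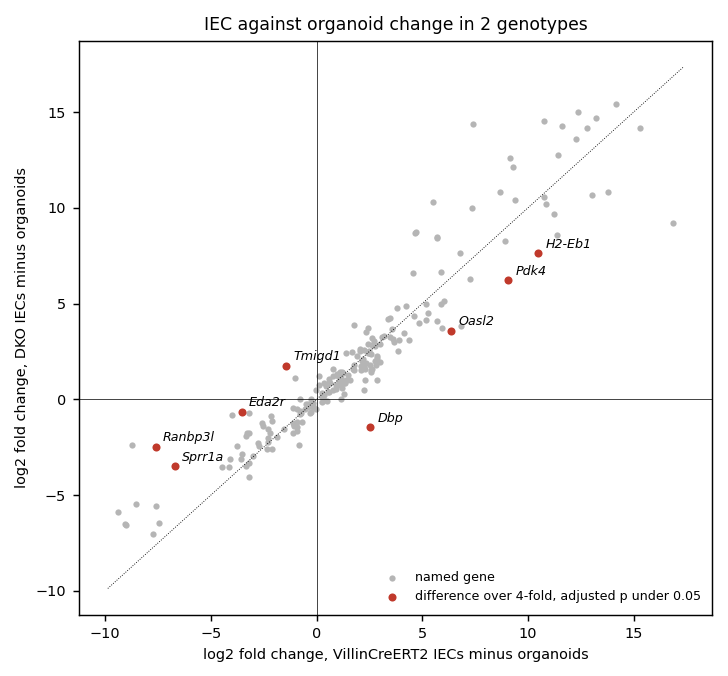
Fitted log2 fold change (IECs minus organoids) of each named gene in the VillinCreERT2 pair (x axis) and in the double-knockout pair (y axis), with a dotted line of equal change and in red the 8 genes whose difference passed the contrast. Values of genes without counts in 1 group depend on the prior count of the fit, and Dbp and Tmigd1 lie in quadrants of opposite sign.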

How the data were processed

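The authors deposited unnormalized counts for each of 54752 Ensembl identifiers, with 1 column a library. The submitters' processing notes name STAR 2.5.2, featureCounts of Subread 1.6.3 and mm10, and strandedness was not given in the sources used here, so overlapping and antisense genes cannot be told apart. The IEC and organoid tables were joined by identifier. Columns were tied to samples by their names, and 18 columns of per-sample values in another table that could not be so tied were not used.

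Counts were filtered with filterByExpr, scaled by TMM and tested with edgeR 4.0.16 (R 4.3.3, robust quasi-likelihood), with Benjamini-Hochberg adjustment over all 14679 genes. The code was tested on simulated data. Standard errors were derived from the fitted change and its F statistic. Genes with no count in 1 group were set against a floor of 3 counts over that group, and those with 1 to 3 counts were given as a ratio with an exact 95% interval. Intervals and floors cover counting error only. Replicates of each group differed by more than sampling noise. Same-numbered IEC and organoid libraries did not deviate together (correlations of -0.0391, 0.00289 and 0.00857), so they were not paired. Symbols and types come with the deposited counts. Positions come from GENCODE vM21 (GRCm38), which held 96.2% of tested identifiers. Promoters come from a RefSeq table of 32851 windows of 27025 genes. DESeq2 1.42.0, limma 3.58.1, other scalings, filters, thresholds, organoid lines and libraries left out were alternatives.

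Named genes were the 10 largest changes each way with a mean of 50 counts or more in the higher group, up to 4 called and 2 uncalled members of each list with the highest CPM, and defining markers, and some genes that the rule named are not reported here. Genes of the promoter stretches, Psmb8, Tap1, Lss, Apob, Abca1 and Slc16a3 were chosen after their values were seen. The members and lists were chosen with earlier results of these data known.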

Additional observations from a re-analysis of the deposited data

Results flagged for a closer look

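Among 208 named genes, 8 had a change between IECs and organoids that differed between the control pair and the double-knockout pair (edgeR contrast over 12 libraries, adjusted p under 0.05 and over 4-fold). Each difference is the double-knockout change minus the VillinCreERT2 change on the log2 scale. Dbp differed by -4 (2.54 in controls, -1.46 in the double knockout, adjusted p = 2.18e-05), and its control change was 1.05 against C57BL/6 and 0.90 against vehicle organoids, without a call. Oasl2 differed by -2.78 (6.37 and 3.58, adjusted p = 0.000498), and H2-Eb1, a class II chain, by -2.86 (10.48 and 7.62, adjusted p = 0.046). Sprr1a differed by 3.22 (-6.71 and -3.49, adjusted p = 0.00333) and Eda2r, a p53 target, by 2.89 (-3.53 and -0.64, adjusted p = 0.0123). Against C57BL/6 organoids the control changes of these 2 genes were -4.34 and -1.82. Tmigd1, an adhesion gene of the enterocyte, differed by 3.20 (-1.44 and 1.76, adjusted p = 0.0122). Pdk4 differed by -2.85 (9.07 and 6.22, adjusted p = 0.0346) and Ranbp3l by 5.13 (-7.60 and -2.47, adjusted p = 0.0357), and both rest on a group with few counts, 3 and 4 in all. Ranbp3l measured 0.297 to 0.607 CPM in C57BL/6 organoids. Genotype and organoid line cannot be told apart in these differences. Tmigd1 also changed sign among the control organoid lines, at -1.42 against VillinCreERT2 organoids and 3.93 against C57BL/6 organoids. No outlier test was run, since each group has 3 libraries.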

How the results depend on the processing

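The counts of 1259 genes higher in IECs and 459 higher in organoids moved by less than 1.5 times with DESeq2 (1311 and 452), limma-voom (1206 and 475), DESeq2 size factors, upper quartile scaling and a test against 1.5-fold. Library totals alone gave 780 higher in organoids. Without a filter the counts were 1953 and 805, with at least 10 counts in every library 608 and 180, at 2-fold 2597 and 1991, at 8-fold 737 and 195, and over protein-coding genes 295 were higher in organoids. C57BL/6 organoids gave 716 and vehicle organoids 784 higher in organoids. Without a filter the double-knockout counts of 2022 and 478 became 3339 and 754. Leaving out 1 library gave 1285 to 1463 and 475 to 597 in the control pair, and 1996 to 2411 and 468 to 616 in the double-knockout pair. The contrast between genotypes gave 253 genes, or 258 without a filter and 257 with upper quartile scaling.

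With the replicate number as a block the counts were 1272 and 468 in the control pair and 2006 and 489 in the double-knockout pair. Same-numbered libraries share only a number, and the block moved no count by 1.5 times, although 6 named genes gained a call with it.

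Against vehicle organoids Lyz1 turned to -0.41, Gcg to 9.39, Chgb to 8.96, Cybrd1 to 4.20, Fabp6 to 7.36 and Tmigd1 to 3.16. Against C57BL/6 organoids Gcg turned to 0.18, Cybrd1 to 3.66, Fabp6 to 8.73 and Tmigd1 to 3.93. The cause was not tested. A comparison within the table that holds both settings was not run, since its columns could not be tied to labels. Depth limits genes near 0: a gene without a count in the organoids has only a lower bound, and the filter removes genes low in both groups. Col1a2, at 10.75 with adjusted p = 0.0586, was called without IEC replicate 2 (7.00, adjusted p = 0.019), without IEC replicate 1 (11.34, adjusted p = 0.04), with the replicate block, with DESeq2 and with both control organoid lines pooled. Col3a1 was called without replicate 2 (8.41, adjusted p = 0.0133) or 1, with the block and with both lines. Setting, table, time and line cannot be told apart.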

Other observations

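Exocrine pancreas genes did not share 1 order among the IEC libraries. They summed to 108, 66 and 55.8 CPM in IEC replicates 1, 2 and 3 and to 41.5 to 56.7 CPM in organoids, and most of the IEC sum was Clps (colipase), at 103, 54 and 53.6 CPM. Cpa1, a pancreatic carboxypeptidase, had 2, 10 and 2 counts in IEC replicates 1, 2 and 3 and none in organoids, and Cela2a, an elastase, had 1, 23 and 1. Ctrb1, a chymotrypsinogen, went the other way, with 0.365, 2.74 and 0.178 CPM in IECs and 13.7, 15.0 and 23 CPM in organoids. Spp1 (osteopontin) had 6, 1482 and 72 counts in the IEC libraries and Saa3, an acute phase protein, had 5, 1385 and 80, so both lay mainly in replicate 2, and neither was tested.

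Med12l, a paralog of a Mediator kinase module subunit, measured 0.608, 0.854 and 0.654 CPM in IECs and had no count in VillinCreERT2 organoids, which makes it at least 17.2-fold higher. The other 6 genes of the module were not called. These genes were chosen after their values were seen.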
